A study of Mus musculus with 2 samples.

Results

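Macrophages that carry Trem2 and Cd72 and no Mrc1 were described in the adult mouse vomeronasal organ (VNO), the paired tube beside the nasal septum that detects pheromones. The cells came from whole VNOs of male C57BL/6J wild-type mice at postnatal day 60, dissociated with papain and collagenase, frozen, thawed and captured in 2 droplet libraries. There was 1 condition, with no treatment and no mutant allele. The study pooled 5 mice in all, and nothing states that the libraries hold different animals. A p-value here measures the spread between the 2 libraries, which may be technical. Each barcode stands for a cell and each unique molecular identifier (UMI) for a captured mRNA molecule. The cells were chosen by a rule on their own UMIs: at least 200 and at most 9000 genes, at most 5% mitochondrial UMIs, at least 10 UMIs of C1qa, C1qb and C1qc together, 0 of Mrc1, at least 2 of Trem2 and Cd72 together, and 0 of Cd3d, Cd3e and Cd3g. It selected 712 of 10591 kept cells (381 of 5694 in library 1 and 331 of 4897 in library 2), from 24084 barcodes. They are called macrophages without Mrc1 below. The levels of the genes in the rule chose the cells and are given as a description.

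Macrophages are phagocytes that live in almost every tissue and clear dying cells and debris. C1qa, C1qb and C1qc encode the chains of C1q, the first component of the complement cascade, and mark many tissue macrophages. Mrc1 encodes CD206, a mannose receptor typical of resident macrophages near vessels and of scavenging macrophages. Trem2 is a lipid-sensing receptor that signals through the adaptor Tyrobp, Cd72 is an inhibitory lectin-like receptor also known from B cells, and Ms4a7 is a membrane protein of macrophages. Ccl3 and Ccl4 are inflammatory chemokines. On mm10, Trem2 lies at chr17:48346401-48354147 (plus strand), Cd72 at chr4:43446462-43454628 (minus strand), Mrc1 at chr2:14229392-14332057 (plus strand), Ms4a7 at chr19:11321039-11336146 (minus strand), and the neighbours Ccl3 and Ccl4 at chr11:83647844-83649355 (minus strand) and chr11:83662584-83664683 (plus strand). All are protein-coding genes whose 3′ ends were counted.

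The kept cells had a median of 6668 UMIs in library 1 and 6649 in library 2. Macrophages without Mrc1 had a median of 5245 UMIs and 1599 genes (5035 and 5422 UMIs by library), and Mrc1 macrophages, defined below, 5620 UMIs. Barcodes shared between the libraries numbered 33, of which 1 was a macrophage without Mrc1. Scrublet called 1.19% and 2.39% of the kept cells doublets, and 24 of the 712 cells (3.37%). Cells over 15000 UMIs numbered 14 and 15 among the 712 and held 15.8% and 16.4% of their UMIs, so sums over cells lean on a few droplets.

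Of all macrophages, meaning kept cells with at least 10 C1q UMIs and no Cd3 UMI, 42.4% carried no Mrc1 and passed the Trem2 and Cd72 limit (712 of 1679, exact 95% binomial interval 40.0% to 44.8%). The share was 43.2% in library 1 and 41.5% in library 2. These intervals cover counting error only. The label does not separate the cells by Trem2: among the 496 macrophages with at least 2 Mrc1 UMIs, called Mrc1 macrophages, 95.2% also had at least 2 UMIs of Trem2 and Cd72. Outside both groups were 240 macrophages with no Mrc1 and fewer than 2 Trem2 and Cd72 UMIs, with a median of 986 UMIs, and 231 with exactly 1 Mrc1 UMI, with a median of 4884 UMIs. Among the 420 shallowest macrophages (497 to 3009 UMIs) 77.9% had no Mrc1 UMI, against 45.2% to 54.3% in deeper groups of about the same size. Each cell was then thinned to 3000 UMIs, leaving out 418 shallower macrophages of which 151 were among the 712. The rule was applied again to the thinned UMIs, and 573 of 1178 macrophages met it (48.6%). These are not the same sets of cells: before thinning, the cells kept held 561 of the 712 among 1261 macrophages.

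The rule's own limits cut a continuum. The 82 cells with exactly 2 Trem2 and Cd72 UMIs had a median of 1450 UMIs, and the 108 with exactly 1, just outside, 1046 UMIs. Their Ccl4 levels were 2622 and 2943 CPM (counts per 1000000 UMIs of the summed cells), against 5374 CPM in the whole group. Cells with exactly 1 Mrc1 UMI that met every other limit numbered 193. At 2313 CPM of Ccl3, 5607 CPM of Ccl4 and 5845 CPM of H2-Aa, they lay nearer to the macrophages without Mrc1 (1925, 5374 and 7003 CPM) than to the Mrc1 macrophages (1400, 2235 and 1817 CPM). At the C1q limit, 21 of the 712 cells had 10 to 12 C1q UMIs, with a median of 5988 UMIs in all. They held 47.9 CPM of Csf1r, 144 CPM of Ms4a7 and 917 CPM of Ccl4, against 372, 1183 and 5374 CPM in the whole group. Of the 712 cells, 519 held both Trem2 and Cd72, 111 held Trem2 only and 82 held Cd72 only.

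The markers of the label were next followed across 10 cell groups drawn with simple UMI limits (monocytes by Ly6c2 and Ccr2, dendritic cells by Cd209a, neutrophils by S100a8 and S100a9, T cells by Cd3, mature neurons by Omp, and so on). Trem2 stood at 859 CPM in both libraries of the macrophages without Mrc1 and at 935 and 884 CPM in Mrc1 macrophages. No other group passed 66.9 CPM. Ms4a7 stood at 1204 and 1160 CPM, within the 1315 and 1074 CPM of Mrc1 macrophages, and monocytes came next at 33.4 and 34.5 CPM. Trem2 and Ms4a7 were therefore carried by both macrophage groups.

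Cd72 reached 724 and 661 CPM in the macrophages without Mrc1. It was lower in dendritic cells (415 and 470 CPM) and in Mrc1 macrophages (313 and 252 CPM), which overlapped with monocytes (177 and 291 CPM). Ccl4 reached 5193 and 5573 CPM, above dendritic cells (2569 and 3177 CPM), monocytes (2721 and 2564 CPM), Mrc1 macrophages (2248 and 2224 CPM) and neutrophils (1655 and 1368 CPM). Ccl3 was higher in neutrophils (2579 and 2343 CPM) than in the macrophages without Mrc1 (1841 and 2018 CPM), and Mrc1 macrophages followed (1531 and 1285 CPM). At least 1 Ccl4 UMI was found in 77.4% of macrophages without Mrc1 (median depth 5245 UMIs) and in 5.49% of mature neurons (median depth 15540 UMIs), which should lack it.

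**Figure D1:**
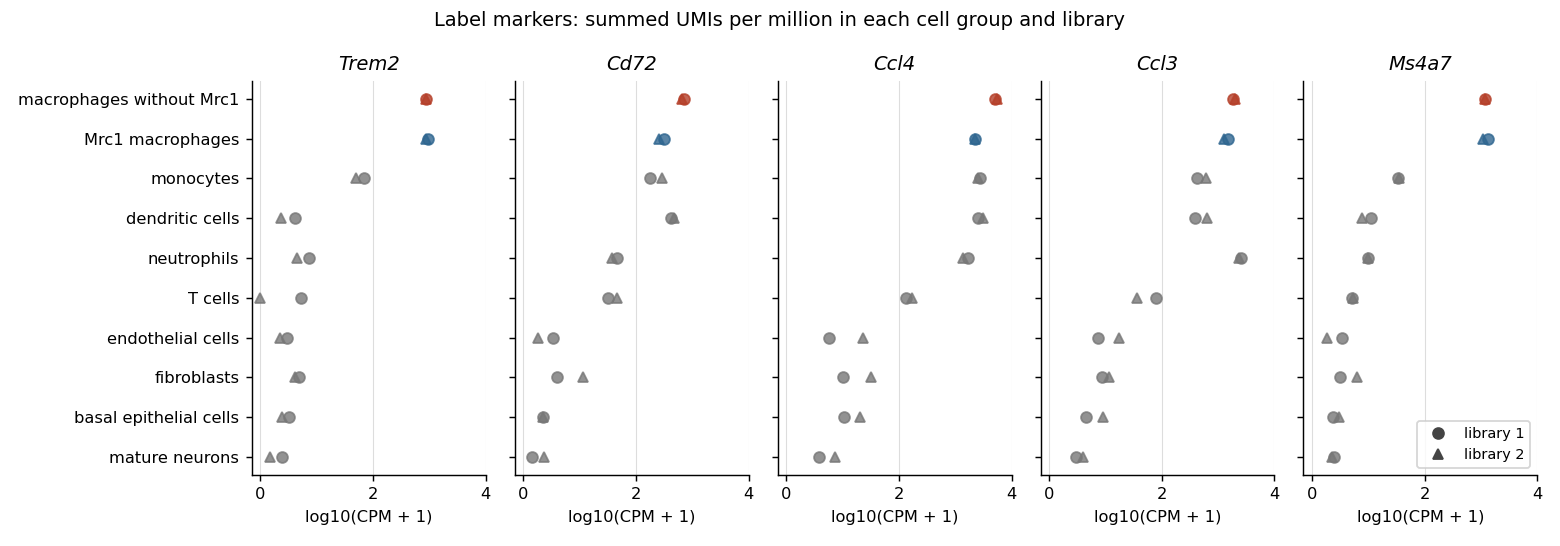
Level of the 5 label markers in 10 cell groups, as log10 of summed CPM plus 1, with a circle for library 1 and a triangle for library 2. Trem2 and Ms4a7 lie at about the same level in both macrophage groups, while Cd72 and Ccl4 lie higher in the macrophages without Mrc1 and Ccl3 is highest in neutrophils.

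Macrophages without Mrc1 were then compared with Mrc1 macrophages (249 and 247 cells) to learn what else separates them. They carried more of the MHC class II genes, Il1b, Il1a, Ccl5, Itgax and Ccr2, and far less of the genes of resident scavenging macrophages, such as Stab1, Pf4, Ccl8 and Ccl7. UMIs were summed per library and group and compared in edgeR by its quasi-likelihood test, and p-values were adjusted over all genes tested (Benjamini-Hochberg). Of 12735 genes, 545 were higher (4.28%) and 521 lower (4.09%) in the macrophages without Mrc1 at an adjusted p below 0.05. Each called gene had 1 direction in library 1 and library 2. With the library as a block the counts were 1060 and 987. Mrc1 drew both groups from the same cells, so genes that go with Mrc1 from cell to cell differ by the way the groups were drawn.

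Of 20 genes of resident macrophages 17 could be tested, and 16 of them were lower and none higher (median log2 fold change −3.12, against 0.01 over all genes tested). Of the 17, 7 had fewer than 10 UMIs in the macrophages without Mrc1 and so passed the filter on low counts through the Mrc1 macrophages, where they are high, which fixes their direction. Of the 10 genes with at least 10 UMIs in each group 9 were lower. F13a1, Folr2 and Cd163 are among the 7 genes with fewer than 10 UMIs, so their values are a description. F13a1, which encodes a clotting factor subunit of macrophages, stood at 0.88 and 0.98 CPM against 201 and 174 CPM (log2 fold change −7.42 ± 0.28 SE). Folr2, a folate receptor, stood at 0.88 and 1.46 CPM against 128 and 121 CPM. Cd163, the receptor for haemoglobin bound to haptoglobin, gave 1 UMI in 712 cells and 205 UMIs in 496 cells, 280-fold less per UMI (95% counting interval 49.6 to 11098). The groups did not overlap for F13a1, Folr2 or Cd163, but the filter fixed their direction.

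Cd209f, a lectin of the Cd209 cluster, gave 0 UMIs in the macrophages without Mrc1 and 41.7 and 79.1 CPM in Mrc1 macrophages. Counting 0 as 3 UMIs over the group, it was at least 88.7-fold lower. Its 195 UMIs came from 21 cells, 40.0% of them from 1 cell. Its relative Cd209g (at least 16.8-fold lower, 8 cells) and Nxpe5 (at least 36.4-fold lower, 66 cells) were also without a UMI. Bank1, a scaffold protein known from B cells, stood at 0.44 and 0.98 CPM against 40.4 and 38.7 CPM. Tslp, a cytokine best known from epithelia, stood at 0.44 and 0.49 CPM against 27.6 and 27.4 CPM, from 71 Mrc1 macrophages. Cd209f, Cd209g, Nxpe5, Bank1 and Tslp held 0 to 3 UMIs each in the macrophages without Mrc1. These genes passed the filter on low counts through the Mrc1 macrophages, which fixes their direction. Their values are a description.

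Cbr2, a carbonyl reductase, was the resident gene that did not pass the test, with 362 and 427 CPM against 420 and 535 CPM (adjusted p = 0.647), and it was called lower without cells over 15000 UMIs. The receptor genes Vmn1r58 and Vmn1r62 of vomeronasal neurons were also called lower, but 241 of the 265 Vmn1r58 UMIs of Mrc1 macrophages and 55 of the 58 Vmn1r62 UMIs came from 1 cell each. Both receptor genes passed the filter on low counts through the Mrc1 macrophages, which fixes their direction. Without cells over 15000 UMIs neither gene had enough UMIs to be tested.

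Of 9 tested clearance receptors 5 were lower, none higher and 4 not called, among them Stab1, a scavenger receptor, at 34.8 and 71.7 CPM against 405 and 394 CPM, and Mertk, a receptor for apoptotic cells, at 13.2 and 15.1 CPM against 42.4 and 45.2 CPM. Of 6 Fc receptor genes 4 were lower and 2 not called, Fcgr4 was called higher without cells over 15000 UMIs, and Fcgrt, the neonatal Fc receptor, changed most (log2 fold change −1.53 ± 0.13 SE, adjusted p = 0.000103). Of 9 complement genes and receptors 4 were lower, led by C4b (log2 fold change −3.14 ± 0.20 SE), Cfp, which encodes properdin, and the C5a receptor C5ar1. Itgax was higher.

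The C1q genes that draw both groups stood lower in the macrophages without Mrc1, with C1qa at 7222 and 7254 CPM against 10551 and 9497 CPM. The general macrophage genes were split. Csf1r, the receptor for the growth factor of macrophages, stood at 331 and 418 CPM against 890 and 862 CPM, and Lyz2, lysozyme, at 3315 and 3302 CPM against 9677 and 8718 CPM. Of the 15 genes 6 were lower, 2 higher (Ctss and Cd14) and 7 not called. Tyrobp, the adaptor of Trem2, stood at 2270 and 2066 CPM against 2244 and 1793 CPM (adjusted p = 0.332, and 0.0337 without cells over 15000 UMIs), and Aif1 and Spi1 were not called either. Tyrobp was found in 98.7% and Csf1r in 74.6% of the 712 cells, and in 8.61% and 0.753% of the deeper mature neurons, which should lack them.

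MHC class II genes, which present antigen to CD4 T cells, were higher in 7 of 11 cases and lower in none, with a median log2 fold change of 1.32. Cd74, the invariant chain, stood at 29543 and 26181 CPM against 10165 and 5299 CPM. H2-Eb1 stood at 9926 and 10086 CPM against 3213 and 1834 CPM (log2 fold change 2.12 ± 0.21 SE, adjusted p = 0.000211). H2-Aa, H2-Ab1, H2-DMa, H2-DMb1 and Ciita, the transcriptional activator of class II genes, were also called. The costimulatory genes Cd86 (162 and 186 CPM against 222 and 256 CPM), Cd80 and Cd40 were not.

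The class II level varied widely from cell to cell. The sum of H2-Aa, H2-Ab1 and H2-Eb1 had a median of 285 UMIs per 10000 in either library of the macrophages without Mrc1, but its 10th percentile was 2.76 and 1.69 and its 90th percentile 536 and 534. In Mrc1 macrophages the medians were 8.94 and 4.66 UMIs per 10000. Dendritic cells held more H2-Aa (10349 and 9435 CPM) than the macrophages without Mrc1 (6974 and 7035 CPM), and monocytes less (5076 and 5568 CPM). Within the macrophages without Mrc1, cells richer in class II genes held fewer UMIs of the resident list (Spearman's rho across cells −0.42 and −0.51). These shares come from the same library and the same total per cell.

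**Figure D2:**
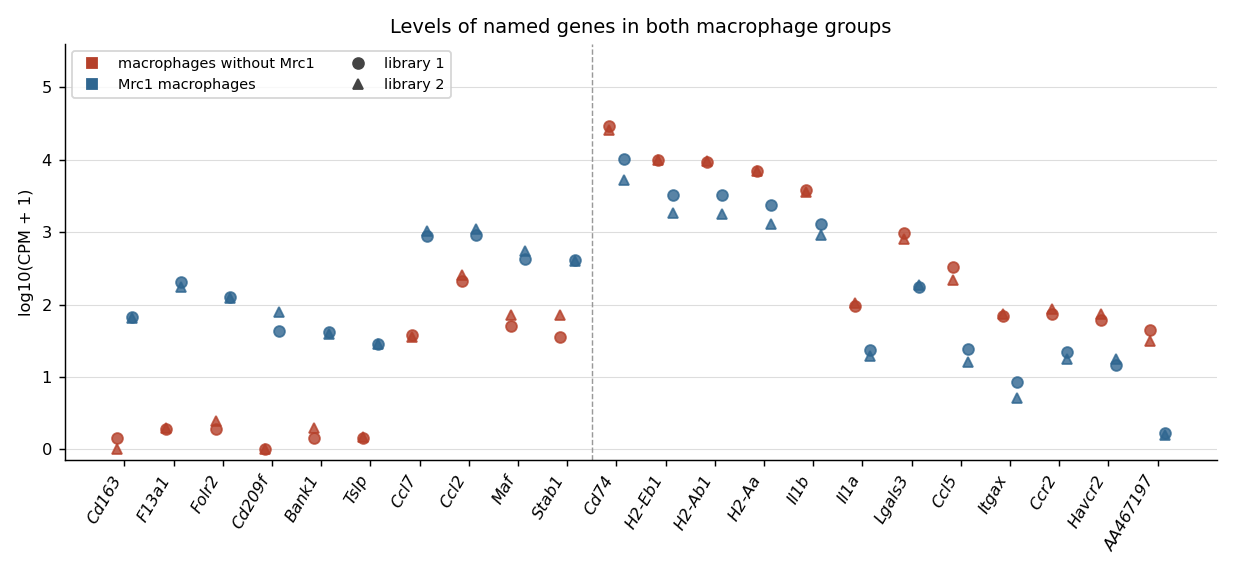
Levels of 22 named genes in macrophages without Mrc1 (red) and Mrc1 macrophages (blue), as log10 of CPM plus 1, with a circle for library 1 and a triangle for library 2. The genes were picked from those called. Left of the dashed line Mrc1 macrophages are higher (Stab1 at 405 and 394 CPM against 34.8 and 71.7 CPM), and right of it the macrophages without Mrc1 are higher. The filter on low counts fixed the direction of Cd163, F13a1, Folr2, Cd209f, Bank1, Tslp and AA467197.

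The chemokines went both ways. Of 14 tested, 2 were higher and 3 lower. Ccl5, which attracts T cells, stood at 334 and 217 CPM against 23.6 and 14.9 CPM (adjusted p = 2.8e-05), in 96 of 712 cells. T cells held 1083 and 724 CPM of it. Cxcl16 stood at 577 and 528 CPM against 314 and 294 CPM. The Ccr2 ligands Ccl7 (36.6 and 34.6 CPM against 875 and 1050 CPM), Ccl12 (413 and 525 CPM against 2131 and 2172 CPM) and Ccl2 (209 and 257 CPM against 921 and 1116 CPM) were lower. Ccl8, held in the resident list, was lower as well. Ccl24 of that list is among its 7 genes with fewer than 10 UMIs in the macrophages without Mrc1. The filter on low counts fixed its direction. With the block 6 chemokines were higher and 5 lower.

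Among chemokine receptors, Ccr2, which draws monocytes from blood, was higher (74.1 and 85.3 CPM against 20.9 and 16.7 CPM), as were Cxcr4 and Ccrl2, and Ccr1 was lower. Ccr2 was found in 22.3% and 26.6% of the macrophages without Mrc1 and at 476 and 472 CPM in monocytes. Ly6c2, a monocyte surface protein, gave 110 UMIs in 29 cells against 2 UMIs in 2 cells (40.3-fold, counting interval 10.9 to 337), at 24.7 and 26.3 CPM against 707 and 826 CPM in monocytes. Of the 8 monocyte genes 4 could be tested, 2 were higher (these), F10 had no UMI, and the list summed to 131 and 164 CPM against 50.5 and 39.9 CPM. Ly6c2 passed the filter on low counts through the macrophages without Mrc1, which fixes its direction. Of the 3 monocyte genes with at least 10 UMIs in each group 1 was higher.

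Inflammatory cytokines differed by gene. Of 15 tested 4 were higher and 1 lower, and with the block 8 were higher. Il1b, an inflammasome-processed cytokine, stood at 3882 and 3600 CPM against 1276 and 903 CPM (log2 fold change 1.92 ± 0.16 SE, adjusted p = 8.27e-05), and neutrophils held 13567 and 9855 CPM. Il1a, Cd83 and Nlrp3 were also higher, and Il10, an anti-inflammatory cytokine, was lower (4.85 and 1.95 CPM against 12.8 and 34.5 CPM). Tnf stood at 250 and 278 CPM against 315 and 277 CPM (adjusted p = 0.942). Of 16 immediate early and dissociation stress genes 3 were higher (Atf3, Dnajb1 and Hsp90aa1), Ier3 was lower, and Fos, at 3270 and 2931 CPM against 3507 and 3107 CPM, was among the 12 not called. Of 12 interferon response genes Ifit1 and Ifit3 were lower.

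Beyond the lists, the largest rises were in AA467197 (43.7 and 30.2 CPM against 0.67 and 0.60 CPM, in 72 cells), Klrb1b, a lectin of the natural killer receptor family (11.5 and 14.1 CPM against 0 and 0.60 CPM), and Haao, an enzyme of tryptophan breakdown (15.9 and 19.0 CPM against 0.67 and 1.19 CPM). Grap2, an adaptor known from T cells, rose in 50 cells against 3, and Ly6i in 21 against 3. H2-M2, a non-classical MHC class I gene, gave 121 UMIs in 23 cells, 35.5% of them in 1 cell, against 7 UMIs in 2 cells. Itgax, the integrin chain CD11c, stood at 67.5 and 72.2 CPM against 7.41 and 4.17 CPM (log2 fold change 3.74 ± 0.27 SE, adjusted p = 2.92e-05), in 192 of 712 cells against 14 of 496. Dendritic cells held 95.9 and 66.9 CPM of Itgax. Lyz1 was called too, but its 219 UMIs came from 3 cells and 186 of them from 1. In Mrc1 macrophages AA467197, Klrb1b, Haao, Grap2, Ly6i, H2-M2 and Lyz1 held 1 to 7 UMIs each. These genes passed the filter on low counts through the macrophages without Mrc1, which fixes their direction. Their values are a description.

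Genes linked to Trem2 in lipid-laden macrophages went both ways, with a median log2 fold change of 0.21 against 0.01 over all genes tested. With the block 6 were higher and 3 lower, and without cells over 15000 UMIs 5 and 1. Of 17 tested, 5 were higher (Itgax, Lgals3, Spp1, Cd9 and Cd52), 2 lower (Lpl and Ctsb) and 10 not called, and Clec7a was not analysed here. Lgals3, a galectin, stood at 968 and 793 CPM against 175 and 187 CPM. Spp1, osteopontin, stood at 124 and 60.5 CPM against 35.7 in both libraries. Apoe, the lipid carrier and one of the most abundant mRNAs of these cells, stood at 51661 and 50109 CPM against 72303 and 63085 CPM (adjusted p = 0.0538). Gpnmb stayed at or below 5.36 CPM in each sum. Of 11 lipid transport genes 3 were lower (Lpl, the cholesterol exporter Abca1 and Lipa) and 8 not called. With the block 3 were higher and 4 lower, and Apoc2 was called higher without cells over 15000 UMIs. Of 16 lysosome genes 4 were higher, led by Psap, and 4 lower, led by Grn.

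Genes of resting microglia were split too: of 11 tested, 4 were higher, among them Tgfbr1, Tmem119 and Olfml3, and 3 lower (Fcrls, P2ry13 and P2ry12). Fcrls fell most, from 1259 and 1192 CPM in Mrc1 macrophages to 283 and 285 CPM. Tmem119 stood at 161 and 174 CPM against 87.5 and 81.5 CPM. Sall1, the factor that defines microglia, gave 1.76 and 3.41 CPM. Among 16 macrophage transcription factors Runx3, Batf3, Bhlhe40 and Irf8 were higher, and Maf (49.8 and 71.7 CPM against 427 and 543 CPM) and Mef2c were lower. Of 10 inhibitory receptors Havcr2, which encodes TIM-3, was higher (60.0 and 74.1 CPM against 13.5 and 16.7 CPM) and Cd200r1, Siglec1 and Sirpa were lower. In the Ms4a family Ms4a4c was higher and Ms4a6b and Ms4a6d lower among 6. None of the 5 tested genes of the Trem family and its adaptors, Tyrobp included, was called. None of 10 cell division genes was called (2 higher with the block), with Stmn1 at 181 and 111 CPM against 90.9 and 143 CPM. With the block, counts higher and lower moved to 5 and 5 for the microglia genes, 5 and 4 for the transcription factors, 1 and 4 for the Ms4a family, 1 and 1 for the Trem family, 5 and 8 for the lysosome genes, 5 and 3 for the stress genes, 4 and 2 for the chemokine receptors and 2 and 4 for the complement genes.

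**Figure D3:**
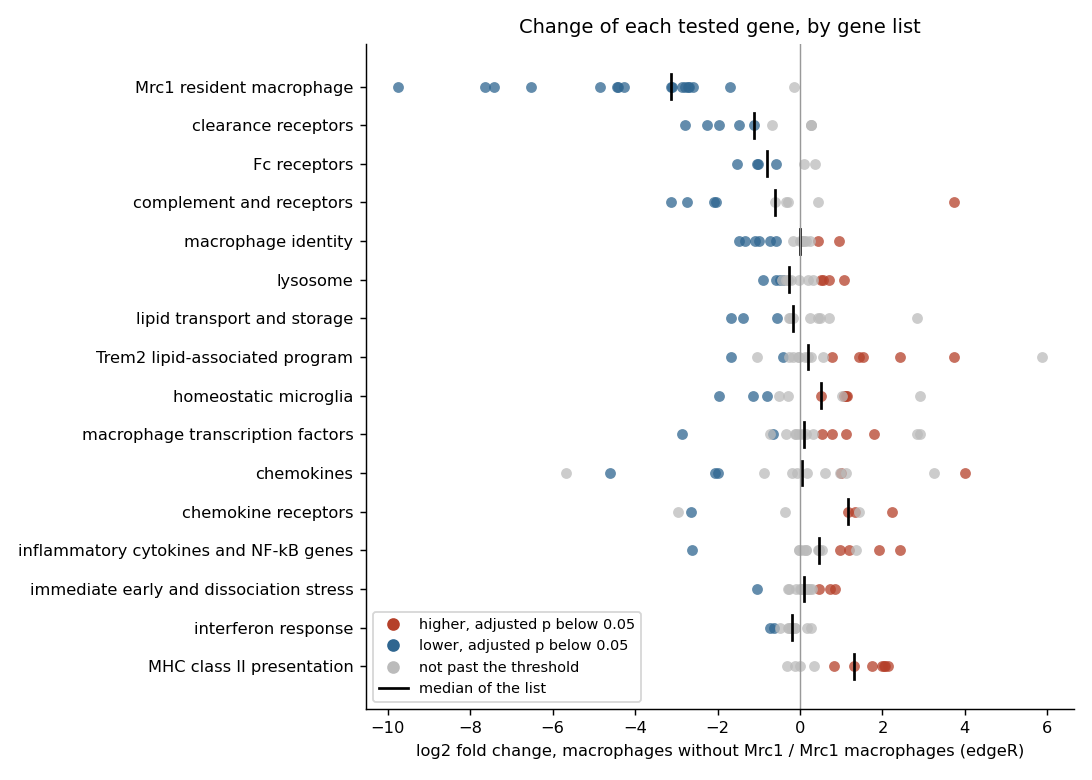
Log2 fold change of every tested gene in 16 gene lists, macrophages without Mrc1 over Mrc1 macrophages, with black bars at the list medians. Resident macrophage genes lie far to the left (median −3.12) and MHC class II genes to the right (median 1.32), while chemokines spread to both sides. The filter on low counts fixed the direction of 7 of the 17 resident genes. Of the 10 with at least 10 UMIs in each group 9 were lower.

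Markers of other cells were read beside these changes. The summed level of 6 epithelial markers was 1377 and 1171 CPM in the macrophages without Mrc1 and 747 and 971 CPM in Mrc1 macrophages, and Krt8 and Krt18 were called higher. They were not called without cells over 15000 UMIs (adjusted p = 0.361 and 0.4). Neuron markers summed to 482 and 302 CPM against 319 and 395 CPM, and Omp was called higher but not without those cells (adjusted p = 0.393). Endothelial markers summed to 76.3 and 104 CPM against 25.6 and 63.7 CPM, and Cldn5 was called higher with 56.0% of its UMIs in 1 cell. Fibroblast markers summed to 217 and 120 CPM against 725 and 272 CPM, and Dcn was called lower. Neutrophil markers summed to 124 and 54.1 CPM against 80.1 and 142 CPM, with none called and Camp and Ngp at 0.

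T and NK cell markers summed to 50.3 and 46.3 CPM against 62.0 and 51.8 CPM. Trac, Cd8a, Nkg7 and Gzma had no UMI in the 712 cells, while Il7r was higher (30.4 and 26.3 CPM against 3.37 and 2.98 CPM, in 71 cells) and Cd4 lower. B cell markers summed to 219 and 213 CPM against 348 and 307 CPM, with Cd79a and Ms4a1 among those at 0 and Cd79b lower. Dendritic cell markers summed to 22.5 and 39.5 CPM against 33.0 and 11.3 CPM, all 8 had at least 1 UMI in the 712 cells, and Dpp4 was higher. Of the 2 dendritic cell markers with at least 10 UMIs in each group none was higher. The part of these cells in the changes above was not tested. With the block 4 epithelial, 2 neuron and 4 endothelial markers were higher, and 1 epithelial and 6 fibroblast markers lower. Leaving out cells over 15000 UMIs does not remove RNA of other cells from the rest. H2-Eb1 then had a log2 fold change of 2.30, Il1b 2.15, Ccl5 4.08, Itgax 3.98, F13a1 −7.20 and Ccl7 −4.42.

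Ccl3 and Ccl4, the most uneven of the label markers, were then used to look inside the macrophages without Mrc1. Of the 31516 UMIs of both chemokines, 37.6% lay in the 72 richest cells, and 121 cells (17.0%) had none. The median was 37.7 UMIs per 10000 in library 1 and 54.6 in library 2, and the highest cell reached 571 and 536. Mrc1 macrophages had a median of 19.1 in library 2, a lower one in library 1, and 19.2% of cells at 0. Both chemokines were found in 253 and 250 cells, Ccl3 alone in 23 and 17, and Ccl4 alone in 29 and 19.

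**Figure D4:**
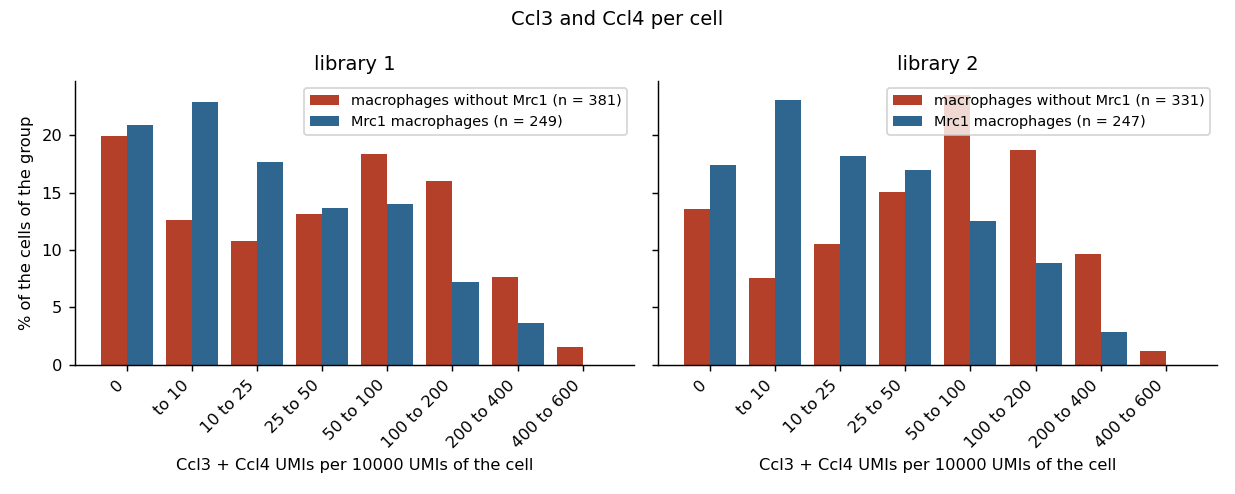
Share of cells (%) by Ccl3 plus Ccl4 UMIs per 10000 UMIs of the cell, for macrophages without Mrc1 (red) and Mrc1 macrophages (blue) in each library. At 50 to 100 UMIs per 10000 there are 18.4% and 23.6% of the macrophages without Mrc1 and 14.1% and 12.6% of Mrc1 macrophages, and no Mrc1 macrophage lies above 400.

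The macrophages without Mrc1 were split within each library at the median share of Ccl3 and Ccl4, giving 190 and 165 cells above and 191 and 166 below. Cells above held more of the cytokine and NF-kB response genes Tnf, Nfkbiz, Tnfaip3, Cd83 and Il1b, more of the chemokines Cxcl2, Ccl2, Ccl12 and Cxcl10, and more immediate early RNA. By the way the groups were drawn, Ccl4 stood at 9310 and 10438 CPM above against 702 and 1404 CPM below, and Ccl3 at 3170 and 3546 CPM against 392 and 707 CPM. Of 11469 genes, edgeR called 296 higher (2.58%) and 341 lower (2.97%), and 713 and 708 with the block. The result leans on a few deep droplets. Below the median, 9 and 13 cells over 15000 UMIs held 24.6% and 27.2% of the UMIs, against 7.70% and 3.92% for 5 and 2 such cells above, and without them 43 genes were higher and 72 lower. For that reason each list below is given with its count without those cells.

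Of 15 cytokine and NF-kB genes 9 were higher above the median and none lower, with a median log2 fold change of 1.18 against 0.00 over all genes tested. Without cells over 15000 UMIs 6 were higher (Il1b, Tnf, Nfkbia, Nfkbiz, Tnfaip3 and Cd83). Tnf, the tumour necrosis factor, stood at 360 and 395 CPM against 130 and 178 CPM (log2 fold change 1.53 ± 0.16 SE, adjusted p = 0.000509, and 0.024 without those cells). Nfkbiz, a nuclear cofactor of NF-kB, stood at 342 and 412 CPM against 127 and 172 CPM. Tnfaip3, the NF-kB inhibitor A20, stood at 145 and 192 CPM against 53.5 and 88.8 CPM, and Cd83 at 926 and 1072 CPM against 396 and 507 CPM. Across single cells the list's share rose with that of Ccl3 and Ccl4 (rho 0.68 and 0.63), as a description, since both are shares of the same cell's total.

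Of 13 other chemokines 5 were higher and none lower, and 4 of them (Ccl2, Ccl12, Cxcl2 and Cxcl10) without cells over 15000 UMIs. Cxcl2, which attracts neutrophils, stood at 1171 and 1366 CPM against 589 and 397 CPM, and Ccl12 at 576 and 790 CPM against 236 and 297 CPM. Cxcl10 stood at 109 and 372 CPM against 60.9 and 78.8 CPM, with 29.1% of its UMIs above the median in 1 cell. Ccl5 was not called. Of the chemokine receptors Ccrl2 (819 and 846 CPM against 268 and 430 CPM) and Cxcr4 were higher, and Ccrl2 remained without those cells.

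NF-kB is the transcription factor that many of these genes are known to respond to, so the 250 bases before the start of each list gene were searched on both strands for its 10-base consensus. A promoter was at hand in RefSeq (GRCm38.p6) for 12 of the 16 cytokine and NF-kB genes, 16 promoters in all. Of these 16 promoters 5 held a match. Of 32851 promoters of the same length 3.90% held one. The list was drawn up to include NF-kB genes, so this is a description and not a test. Of the 9 genes higher above the median 6 had a promoter in the table and 3 a match, while Il1a, Il1b and Tnf had none. The AP-1 letters TGANTCA were in 4 of the 16 promoters and in 6.75% of all. Below, Tnfaip3 and, from outside this list, Cxcl2 are shown because they were called higher and hold matches. Nfkbia is shown because it encodes the inhibitor of NF-kB, and Ccl3 because it drew the groups. Capitals mark the consensus, with 2 overlapping matches in Cxcl2, and the Ccl3 stretch holds none.
Cxcl2, chr5:90903649-90903898, plus strand: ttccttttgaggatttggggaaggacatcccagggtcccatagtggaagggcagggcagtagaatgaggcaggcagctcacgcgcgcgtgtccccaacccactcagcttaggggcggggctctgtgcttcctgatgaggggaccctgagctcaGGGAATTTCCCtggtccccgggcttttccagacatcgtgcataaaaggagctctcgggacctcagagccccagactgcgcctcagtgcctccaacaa
Tnfaip3, chr10:19015411-19015660, minus strand: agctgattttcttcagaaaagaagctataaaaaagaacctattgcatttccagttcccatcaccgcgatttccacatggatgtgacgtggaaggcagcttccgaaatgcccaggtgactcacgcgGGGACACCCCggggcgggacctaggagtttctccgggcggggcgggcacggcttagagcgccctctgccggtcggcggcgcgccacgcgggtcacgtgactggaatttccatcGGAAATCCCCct
Nfkbia, chr12:55492648-55492897, minus strand: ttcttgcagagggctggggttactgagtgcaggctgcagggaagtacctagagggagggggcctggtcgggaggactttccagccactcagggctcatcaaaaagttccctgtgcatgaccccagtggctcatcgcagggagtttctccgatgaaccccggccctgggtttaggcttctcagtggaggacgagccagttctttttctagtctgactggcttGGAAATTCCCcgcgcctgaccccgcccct
Ccl3, chr11:83649379-83649628, minus strand: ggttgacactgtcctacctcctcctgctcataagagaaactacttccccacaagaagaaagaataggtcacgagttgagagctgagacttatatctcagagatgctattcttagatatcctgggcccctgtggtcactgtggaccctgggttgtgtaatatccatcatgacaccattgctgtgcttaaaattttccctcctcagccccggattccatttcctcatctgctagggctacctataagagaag

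A match is a run of letters and not a binding site, and no binding was measured. Of 16 immediate early and dissociation stress genes 14 were higher above the median (6 without cells over 15000 UMIs: Fos, Junb, Atf3, Dusp1, Klf6 and Hsp90aa1). Dusp1, a phosphatase induced by stress, stood at 1723 and 1839 CPM against 904 and 955 CPM, and Hspa1a, a heat shock protein, at 2109 and 2620 CPM against 927 and 1523 CPM. The summed level of the list was 26651 and 27771 CPM above and 16470 and 19416 CPM below, and across cells it rose with Ccl3 and Ccl4 (rho 0.65 and 0.57). Enzymatic dissociation can itself induce such genes, and its part in Ccl3 and Ccl4 was not tested. Median depth was 5628 and 5241 UMIs above against 3808 and 5877 below, and mitochondrial UMIs 2.34% and 2.54% against 3.03% and 2.80%.

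Cd72 stood at 909 and 846 CPM above against 521 and 502 CPM and Trem2 at 918 and 908 CPM against 794 and 818 CPM. Both genes chose the cells, so these levels are a description. Both were nevertheless in the fit, and Cd72 is counted among the 296 genes called higher. It was not called without cells over 15000 UMIs. Ms4a7 stood at 1359 and 1297 CPM against 1034 and 1042 CPM (adjusted p = 0.00996, and 0.817 without cells over 15000 UMIs). Of the 15 general macrophage genes 8 were called higher and only Cd14 without cells over 15000 UMIs. The calls for 6 class II genes, 4 microglia genes, 6 macrophage transcription factors, 4 Fc receptors, 3 lysosome genes, 3 inhibitory receptors and C3ar1 of the complement list were all lost without those cells. Apoe, 57756 and 55756 CPM above and 45013 and 45270 CPM below, was called only with them. Of 4 interferon response genes called higher Cxcl10 kept its call. Fabp5, which binds fatty acids, was lower with and without them (70.2 and 56.0 CPM against 185 and 145 CPM), as were Cbr2 (163 and 193 CPM against 578 and 627 CPM) and Ccl8. No clearance receptor, no gene of the Ms4a family list (which leaves out Ms4a7) and no adaptor or other Trem gene was called, nor any monocyte, dendritic cell, neutrophil, T and NK cell or fibroblast marker, and of the B cell markers Ighm was higher with those cells and not without them. With the block 12 lysosome, 8 microglia, 8 interferon response, 4 chemokine receptor, 5 inhibitory receptor and 3 Ms4a genes were higher, as was 1 Trem family and 1 monocyte gene. So were 12 general macrophage, 8 class II and 5 Fc receptor genes. Of the chemokines 5 were higher and 2 lower, of the transcription factors 9 and 2, and 2 neutrophil markers were lower.

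Beyond the lists the largest rises above the median were in Klrd1, Mrtfa, Klhl36, Il2ra, Abcb1b, Mmp12 and Gbp9, each from 40 UMIs or fewer above the median except Il2ra (86), Abcb1b (54) and Mmp12 (83). None of the 7 was called without cells over 15000 UMIs, with fewer cells and log2 fold changes of 2.20 for Klrd1, 2.72 for Klhl36 and 1.34 for Gbp9, against 2.64, 2.04 and 1.59 with them. The largest falls were in Lyz1, Rgs16, Fcgbp, Ptprb, Mical2, Agr2, Cda, Barx2, Cenpf and Stox2, found in 3 to 24 cells below the median and in 0 to 3 above it. Lyz1, Rgs16 and Ptprb kept their call without those cells, Mical2, Agr2, Cda and Stox2 lost it (adjusted p = 0.109, 0.333, 0.361 and 0.0618 in edgeR), and Fcgbp, Barx2 and Cenpf had too few UMIs to be tested. Agr2, which aids the folding of secreted mucins, gave 89 UMIs below in 22 cells. All the genes named as largest falls held 0 to 3 UMIs above the median. The filter on low counts let them through by the cells below it, which fixes their direction. Likewise Klrd1, Mrtfa and Klhl36 held 5, 6 and 9 UMIs below the median and passed through the cells above it. Epithelial markers summed to 452 and 426 CPM above against 2386 and 1810 CPM below and neuron markers to 162 and 120 CPM against 832 and 458 CPM, and 3 of 6 and 5 of 8 were called lower. Endothelial markers summed to 50.7 and 34.9 CPM against 104 and 163 CPM, with Cdh5, Emcn and Eng lower. Of the 6 endothelial markers 2 had fewer than 10 UMIs above the median and passed the filter through the cells below it. Of the 4 with at least 10 UMIs on each side 1 was lower. Without cells over 15000 UMIs 2 epithelial, 3 endothelial, 2 fibroblast and no neuron markers were lower. Of 9 cell division genes Pclaf, Birc5 and Stmn1 were lower, and none without those cells, with Birc5 found in 9 cells below and 2 above. Of these 9 genes 6 had fewer than 10 UMIs above the median and so passed the filter through the cells below it.

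**Figure D5:**
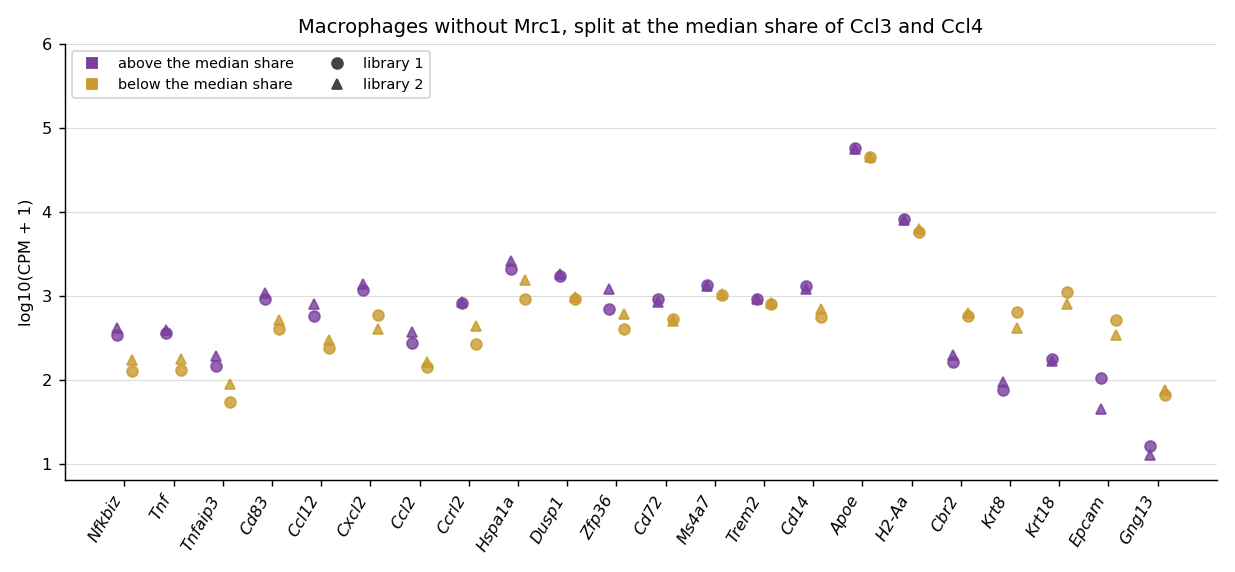
Levels of 22 genes in macrophages without Mrc1 above (purple) and below (yellow) the median share of Ccl3 and Ccl4, as log10 of CPM plus 1, with a circle for library 1 and a triangle for library 2. Tnf, Nfkbiz and Cxcl2 lie higher above the median, and the epithelial genes Krt8, Krt18 and Epcam lie higher below it.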

How the data were processed

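The data were 2 single-cell libraries (10x 3' v3.1) of whole VNO cells. The authors aligned the reads with Cell Ranger 4 and deposited counts of UMIs per gene and barcode, both libraries in 1 aggregated matrix; the depth setting of that step was not stated. Seurat 3.2.3 is named in the submitters' processing notes. Of 32285 gene identifiers 32235 matched GENCODE M21 (mm10). The libraries held 108005626 and 95442231 UMIs. Kept cells had 200 to 9000 genes and at most 5% mitochondrial UMIs. Doublets were called with Scrublet (scanpy 1.11.5) and left in, with their removal as an alternative.

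The UMIs of each cell group were added up within a library, filtered to genes with at least 10 UMIs over the 4 sums, scaled by TMM and tested with edgeR 4.0.16 (quasi-likelihood, Benjamini-Hochberg adjustment, threshold 0.05) in R 4.3.3. Genes of the rule and label markers stayed in the first fit but out of its counts of genes tested and called. In the second comparison only Ccl3 and Ccl4 were left out, so other genes of the rule were counted. At an unadjusted p under 0.05 there were 2685 genes in the first comparison and 2313 in the second. Same-numbered sums came from the same library and so from the same mice, which pairs them; their deviations correlated at 0.0625 and 0.0502. Text values are from the fit without the block unless stated. Named genes were the 10 with the largest log2 fold change in each direction among called genes with at least 30 UMIs and 1 direction in both libraries, leaving out genes that drew the groups, label markers and predicted models (Gm and Rik symbols), and up to 4 called genes per list with the largest changes (or, with none called, the gene with the most UMIs). Other genes in the text were chosen after their values were seen. The members and lists were chosen with earlier results of these data known. Alternatives were another scaling, DESeq2 1.42.0, other filters and limits, thinning to 3000 UMIs, removal of doublets and, chosen after seeing the data, removal of cells over 15000 UMIs. The fits were tested on simulated data. Intervals cover counting error only. Some genes of the lists are not reported here by name.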

Additional observations from a re-analysis of the deposited data

Results flagged for a closer look

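Barcodes left out for more than 5% mitochondrial UMIs were looked at because they are outside the comparisons. Of these, 259 met every other limit of the macrophages without Mrc1 (126 in library 1 and 133 in library 2). They had a median of 1477 UMIs and 579 genes, with a median of 7.2% mitochondrial UMIs, and 66 were over 10%. Their summed levels were 1881 CPM of Ccl4, 634 CPM of Trem2, 377 CPM of Cd72 and 794 CPM of Ms4a7, against 5374, 859, 694 and 1183 CPM in the macrophages without Mrc1. These markers were lower in left-out Mrc1 macrophages too (168 barcodes). Those held 678, 471, 127 and 670 CPM, in the same order, against 2235, 908, 281 and 1187 CPM in the kept Mrc1 macrophages.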

How the results depend on the processing

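Against Mrc1 macrophages, 545 genes were higher and 521 lower. The replicate block, which pairs sums of 1 library, gave 1060 and 987, DESeq2 361 and 333, and a comparator with fewer than 2 Trem2 and Cd72 UMIs (16 and 8 cells) 298 and 93. A limit of 1 Mrc1 UMI gave 338 higher, and no filter on low counts 852. With the comparator of fewer than 2 Trem2 and Cd72 UMIs the median log2 fold change of all genes was 0.47, against 0.01. Of its calls 76.2% were higher, against 51.1%. Log2 fold changes with it reversed for P2ry13 (0.39), Ier3 (0.23), Fcgr1 (0.57), Grn (0.29), Ctsl (0.10), Lipa (0.31), Sirpa (0.41), Ifit1 (0.24), Ifit3 (0.82), S100a8 (8.10), Cd4 (0.23), Cd79b (0.69), Omp (−0.0548) and Dcn (1.26). Without cells over 15000 UMIs Stmn1 (−0.33) and S100a8 (0.30) reversed, and without doublets S100a8 (0.63). Above against below the median Ccl3 and Ccl4 share, 296 were higher and 341 lower. The replicate block gave 713 and 708, DESeq2 155 and 146, a mitochondrial limit of 10% 808 and 1140, no filter 537 and 741, thinned cells 53 and 80, and no cells over 15000 UMIs 43 and 72, of which 95 calls in all were shared. Without doublets 159 were higher, 26.5% of the calls against 46.5%. Without cells over 15000 UMIs Axl (−0.14), Tyrobp (−0.050), Il7r (−0.38) and Trem2 (−0.039) reversed, without doublets Il7r (−0.0934), with thinned cells Ccr2 (−0.076), Dpp4 (0.42), S100a8 (0.12) and Il7r (−0.85), and at the 10% limit Dpp4 (0.19) and Mgp (0.13). The share of macrophages without Mrc1, 42.4%, was 39.2% at the 10% limit, 45.2% from 20 C1q UMIs and 33.1% from 4 Trem2 and Cd72 UMIs. It was 48.6% when the rule was applied again to thinned cells, and 41.5% to 43.2% with 1 library left out. The cause of these moves was not tested. With 1 library left out no gene test has residual degrees of freedom.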
